A study of Homo sapiens with 10 samples.

Results

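Transcript levels of 6 Eph receptors (EPHA2, EPHA3, EPHA4, EPHB2, EPHB3 and EPHB4) and 4 ephrins (EFNA1, EFNB1, EFNB2 and EFNB3) were followed in RD, an established human rhabdomyosarcoma line. These 10 genes were taken by symbol from a count table of 23228 genes, and all 10 were among the 14761 genes with enough counts to be tested. The cells had been transfected with NRAS siRNA 1, NRAS siRNA 2 or a nonspecific siRNA, each at 10 nM, and collected at 48 h. Other cells had received either the ERK inhibitor SCH772984 at 300 nM or DMSO, its vehicle, with collection at 24 h. All 5 groups came from the same line in the same serum-containing medium and held 2 libraries each, and gene counts summed to between 23224063 and 30768970 per library. Nothing in the labels says that replicates are separate cultures, and a p-value here weighs a difference only against the scatter of these libraries, possibly technical scatter.

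Eph receptors form the largest family of receptor tyrosine kinases, and their ligands, the ephrins, are themselves held on the surface of neighbouring cells. A-type ephrins are tied to the membrane by a lipid anchor, B-type ephrins cross it and can signal back into their own cell, and contact between receptor and ligand often makes cells pull apart. In epithelial tumour lines EPHA2 is known as a gene that RAS and ERK signalling switch on, while EFNA1 is known to be held down by the same signalling. In the developing limb, EPHA4 and the A-type ephrins are known for guiding motor axons and migrating muscle precursors.

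NRAS, the targeted gene, averaged 52.3 ± 0.165 TMM-scaled CPM (reads of the gene relative to library size) with siRNA 1 and 49.5 ± 2.14 CPM with siRNA 2, against 246 ± 36.8 CPM with the nonspecific siRNA (SD, n = 2 each). DUSP6, a phosphatase gene that ERK activity induces, averaged 11.4 ± 3.02 CPM with SCH772984, against 278 ± 19.0 CPM with DMSO (SD, n = 2 each). It averaged 98.25 ± 2.26 CPM with siRNA 1 and 105 ± 5.03 CPM with siRNA 2, against 239 ± 46.6 CPM with the nonspecific siRNA (SD, n = 2 each). Of 7 muscle lineage markers, PAX3 had 258 to 393 counts per library, DES 520 to 928 and MYH3 77 to 116. The defining myogenic regulators were at or near 0, with 0 to 5 counts of MYOD1, 0 to 3 of MYOG, 1 to 6 of PAX7 and none of MYF5 in any library. The libraries are therefore called RD by their label only. In bulk RNA, fewer cells with a transcript and less of it per cell cannot be told apart.

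RefSeq on GRCh38.p14 lists a promoter, 250 bases before to 50 after the start site, for 9 of the 10 genes. EPHA4 and EPHB2 have more than 1 start, which made 11 promoters in all. Each was searched on both strands for CCGGAA, which is the GGAA core of ETS sites with a favoured flank, and TGANTCA, the AP-1 site. The search also took TGACGTCA, the cyclic AMP response element, and GGGCGG, the GC box that SP factors bind. ETS and AP-1 factors are the classic nuclear targets of ERK. Of 35116 promoters in the table, 17.2% held CCGGAA, 7.71% TGANTCA, 1.85% TGACGTCA and 45.0% GGGCGG. The printed promoters run 5′ to 3′ on the strand of the gene, in lower case, with the matches in capitals. EFNA1 and EFNB1 are shown because they rose with SCH772984, EPHA3 because it fell with the drug, and EPHA2 because it lay below its controls in every library with either NRAS siRNA or SCH772984.

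EFNA1, chr1:155127626-155127925, plus strand: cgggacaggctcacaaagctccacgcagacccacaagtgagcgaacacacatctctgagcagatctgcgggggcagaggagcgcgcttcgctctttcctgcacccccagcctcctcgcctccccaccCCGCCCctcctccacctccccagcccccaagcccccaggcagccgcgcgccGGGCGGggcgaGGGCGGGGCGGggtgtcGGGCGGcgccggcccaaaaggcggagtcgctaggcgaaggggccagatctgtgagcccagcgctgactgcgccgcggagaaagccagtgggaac

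EFNB1, chrX:68828771-68829070, plus strand: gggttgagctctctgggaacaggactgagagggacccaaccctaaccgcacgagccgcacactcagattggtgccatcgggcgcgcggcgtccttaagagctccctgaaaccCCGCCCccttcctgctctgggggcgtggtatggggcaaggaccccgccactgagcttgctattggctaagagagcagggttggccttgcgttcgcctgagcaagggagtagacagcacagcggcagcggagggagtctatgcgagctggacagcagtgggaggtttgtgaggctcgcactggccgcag

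EPHA3, chr3:89107371-89107670, plus strand: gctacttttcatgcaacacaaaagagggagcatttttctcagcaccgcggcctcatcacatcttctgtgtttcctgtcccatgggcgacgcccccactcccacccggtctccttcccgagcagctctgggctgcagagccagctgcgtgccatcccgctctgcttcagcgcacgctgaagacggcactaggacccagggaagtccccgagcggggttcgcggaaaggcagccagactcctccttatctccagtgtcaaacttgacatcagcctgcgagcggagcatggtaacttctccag

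EPHA2, chr1:16156020-16156319, minus strand: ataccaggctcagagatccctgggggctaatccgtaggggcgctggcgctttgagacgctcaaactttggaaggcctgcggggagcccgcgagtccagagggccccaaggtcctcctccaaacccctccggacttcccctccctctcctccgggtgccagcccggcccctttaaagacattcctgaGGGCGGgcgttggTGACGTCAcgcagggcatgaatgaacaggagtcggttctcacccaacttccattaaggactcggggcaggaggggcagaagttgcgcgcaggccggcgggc

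None of the 11 promoters held CCGGAA or TGANTCA in this window. The shorter GGAA was not searched for, and it does occur in the printed promoters. EFNA1 held 5 GC boxes, of which a pair overlaps by 1 base, and EFNB1 held 1. EPHA3 held none of the 4 motifs, but EPHA4, which also fell with the drug, held 1 and 5 GC boxes at its 2 starts. EPHB4 held 5 and EFNB2 held 3, and neither gene passed with the drug. EPHA2 held 1 GC box and was the only one of the 9 genes with TGACGTCA, which begins 51 bases before the start site. A match is a run of letters and not a site shown to be bound, and the absence of one says nothing of the factor. EFNA1 lies next to EFNA3 and EFNA4 on chromosome 1, where these 3 are consecutive coding genes.

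Between genes, levels were set side by side per length, as CPM divided by the kilobases of merged exons in a GENCODE annotation. EPHB4, the main receptor of ephrin-B2 and a mark of venous endothelium, stood first among the receptors with a median of 44.2 CPM per kb over the 10 libraries (range 41.6 to 53.7). EPHA2 followed at 20.8 (11.9 to 27.4), with a lowest library just under the highest of EPHB3. EPHA4, which binds ligands of both types, had a median of 9.82 CPM per kb (6.98 to 11.2), and EPHB3, known from the ordering of cells in intestinal crypts, had 8.39 (5.33 to 12.4), so these neighbours overlapped. EPHB2 at 2.24 (1.98 to 2.89) and EPHA3, a receptor of ephrin-A5, at 2.13 (1.36 to 2.89) were the lowest of the 6 and overlapped as well. EPHB4 overlaps SLC12A9 in the annotation and EPHA2 has an antisense gene, so with the strand setting of the counting not given, some of these reads could belong to the partner.

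Among the ephrins of the 10, EFNB3, known as a midline barrier for axons, led with a median of 8.82 CPM per kb (6.57 to 11.5). EFNB1, the gene of craniofrontonasal syndrome, followed at 4.06 (3.43 to 7.10), and its range overlapped that of EFNB3. EFNB2, the ligand of EPHB4 in arteries, had 2.20 (1.68 to 4.24) and EFNA1, an inducible ligand of EPHA2, had 2.05 (1.33 to 3.68), which also overlapped. EFNA4, outside the 10, was the highest ephrin at 13.2 (9.79 to 14.5). Dividing by the longest transcript in place of merged exons left the order within the 9 tested receptors and within the 8 ephrins as it was. EPHB4 alone made up 44.3 to 53.8% of the summed level of 14 Eph receptors per kb in a library.

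**Figure D1:**
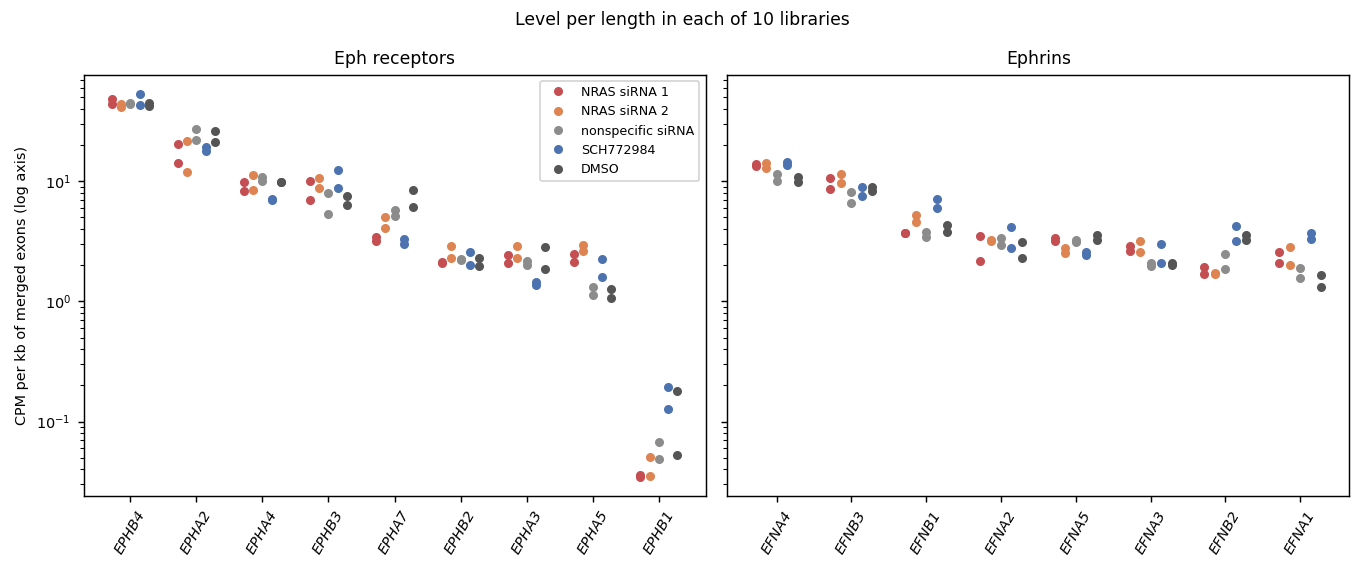
Level of each tested Eph receptor (left) and ephrin (right) in CPM per kb of merged exons, on a log axis, with 1 point per library coloured by group. EPHB4 lies above all other receptors in each of the 10 libraries, and the B-type ephrins EFNB3, EFNB1 and EFNB2 span 8.82 to 2.20 CPM per kb by their medians.

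With SCH772984, EFNA1 and EFNB1 rose and EPHA3 and EPHA4 fell relative to DMSO. Thus 4 of the 10 genes passed the test at an adjusted p of 0.05 (the quasi-likelihood test of edgeR, adjusted by Benjamini-Hochberg over 14761 genes), against 28.0% of all genes tested. Those that rose, 2 of 10, are to be read beside 13.2% of all genes, and those that fell, 2 of 10, beside 14.8%. Both that rose were ephrins and both that fell were A-type receptors. Outside the 10, the A-type receptor EPHA7 fell and the ephrin EFNA4 rose, but the A-type receptor EPHA5 rose and the ephrin EFNA5 fell. The median absolute log2 difference was 0.41 over the 10 genes and 0.29 over all genes tested. The contrast asks which transcripts follow ERK activity within 24 h.

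EFNA1 had 6.32 and 7.10 CPM in the SCH772984 libraries, against 2.55 and 3.23 CPM in the DMSO libraries. Both treated libraries were above both vehicle libraries. This was a 2.31-fold difference, or 1.21 on the log2 scale (SE 0.228, 95% interval 0.70 to 1.72, adjusted p = 0.00377 by edgeR), from 58 to 208 counts per library. EFNA1 encodes ephrin-A1, first found as a product that inflammatory cytokines induce in endothelium. It passed in all 10 settings tried, with log2 differences of 1.06 to 1.39, and its share of the summed ephrin level per kb was 7.03 to 8.61% with SCH772984 and 3.72 to 4.57% with DMSO.

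EFNB1 had 23.51 and 19.96 CPM with SCH772984, against 12.63 and 14.27 CPM with DMSO, again without overlap. Its log2 difference was 0.69 (SE 0.140, 95% interval 0.38 to 1.00, adjusted p = 0.00542 by edgeR), a 1.61-fold difference. It passed in 9 of 10 settings and missed without SCH772984 replicate 1, where the log2 difference was 0.57 with an adjusted p of 0.0540. Ephrin-B1 is a transmembrane ligand of EPHB2 and EPHB3.

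EPHA3 had 9.06 and 9.72 CPM with SCH772984, against 19.01 and 12.41 CPM with DMSO. The vehicle libraries lay far apart, and both were above the treated ones. The log2 difference was -0.74 (SE 0.205, 95% interval -1.19 to -0.28, adjusted p = 0.0237 by edgeR). Without DMSO replicate 1, the higher vehicle library, it was -0.40 with an adjusted p of 0.160, and without SCH772984 replicate 1 or 2 the adjusted p was 0.134 or 0.0734.

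EPHA4 had 46.15 and 47.38 CPM with SCH772984, against 64.74 and 65.16 CPM with DMSO, and replicates were close within each group. Its log2 difference was -0.47 (SE 0.138, 95% interval -0.78 to -0.17, adjusted p = 0.0287 by edgeR). The size held between -0.42 and -0.49 in 10 settings, but the call was lost without any 1 of the 4 libraries, at adjusted p-values of 0.0782 to 0.143, and with upper-quartile scaling, at 0.0609. Of the 4 calls, 1 was left without SCH772984 replicate 1, 2 without SCH772984 replicate 2, 2 without DMSO replicate 1 and 3 without DMSO replicate 2.

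The other 6 genes did not pass. EPHB3 had 52.58 and 37.39 CPM with SCH772984, against 31.73 and 27.06 CPM with DMSO, with no overlap. Its log2 difference of 0.61 (SE 0.241) had an adjusted p of 0.0831 by edgeR and passed with DESeq2 at 0.0339. It passed by edgeR with no filter on low counts at 0.0146 and in a fit of only these 2 groups at 0.0235. With the replicate number as a block it passed at 0.00235 by edgeR. Without SCH772984 replicate 1 it was 0.35 with an adjusted p of 0.456 by edgeR. EPHA2, the receptor that ephrin-A1 binds, had 71.30 and 76.86 CPM with SCH772984, against 83.70 and 104.82 CPM with DMSO. The treated libraries were the lower ones, but the log2 difference of -0.35 had a 95% interval of -0.93 to 0.24.

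For the remaining 4 genes the SCH772984 and DMSO libraries overlapped. The 95% intervals of the log2 difference were -0.23 to 0.46 for EPHB2, -0.08 to 0.40 for EPHB4, -0.28 to 0.52 for EFNB2 and -0.41 to 0.28 for EFNB3. A change of 1.5-fold or more thus lay outside the interval of EPHB2, EPHB4, EFNB2 and EFNB3 in both directions. Over the whole set, 6 of 10 genes had treated libraries entirely above or below the vehicle libraries, as did 66.8% of all genes tested.

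Markers of other cell types also moved with the drug. The summed level of 5 neuronal markers was 422 to 501 CPM with SCH772984 and 837 to 1118 CPM with DMSO, of which 1 marker rose, 2 fell and RBFOX3 had 1 to 5 counts per library. Most of the neuronal sum was NEFL, which averaged 367 CPM with SCH772984 and 815 CPM with DMSO. STMN2 averaged 54.9 against 125 CPM, SYT1 32.5 against 34.5 CPM and SNAP25 7.40 against 3.32 CPM. The 5 endothelial markers summed to 107 to 115 CPM with SCH772984 and 140 to 167 CPM with DMSO, nearly all of it TEK, with 1 marker higher, 2 lower and 0 to 4 counts of PECAM1. Sums of 7 muscle lineage markers were 47.3 to 49.8 CPM with SCH772984 and 36.8 to 41.8 CPM with DMSO, with 0 markers past edgeR's threshold, 1 at an unadjusted p under 0.05 and 1, DES, called by DESeq2. The 5 epithelial markers overlapped, at 227 to 365 CPM with SCH772984 and 234 to 349 CPM with DMSO. The 4 blood markers summed to 2.02 to 2.93 CPM with SCH772984 and 4.22 to 4.97 CPM with DMSO. Nearly all of the blood sum was CD68, which was called lower with the drug, and the other blood markers were not tested. Their part in the Eph and ephrin differences was not tested.

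**Figure D2:**
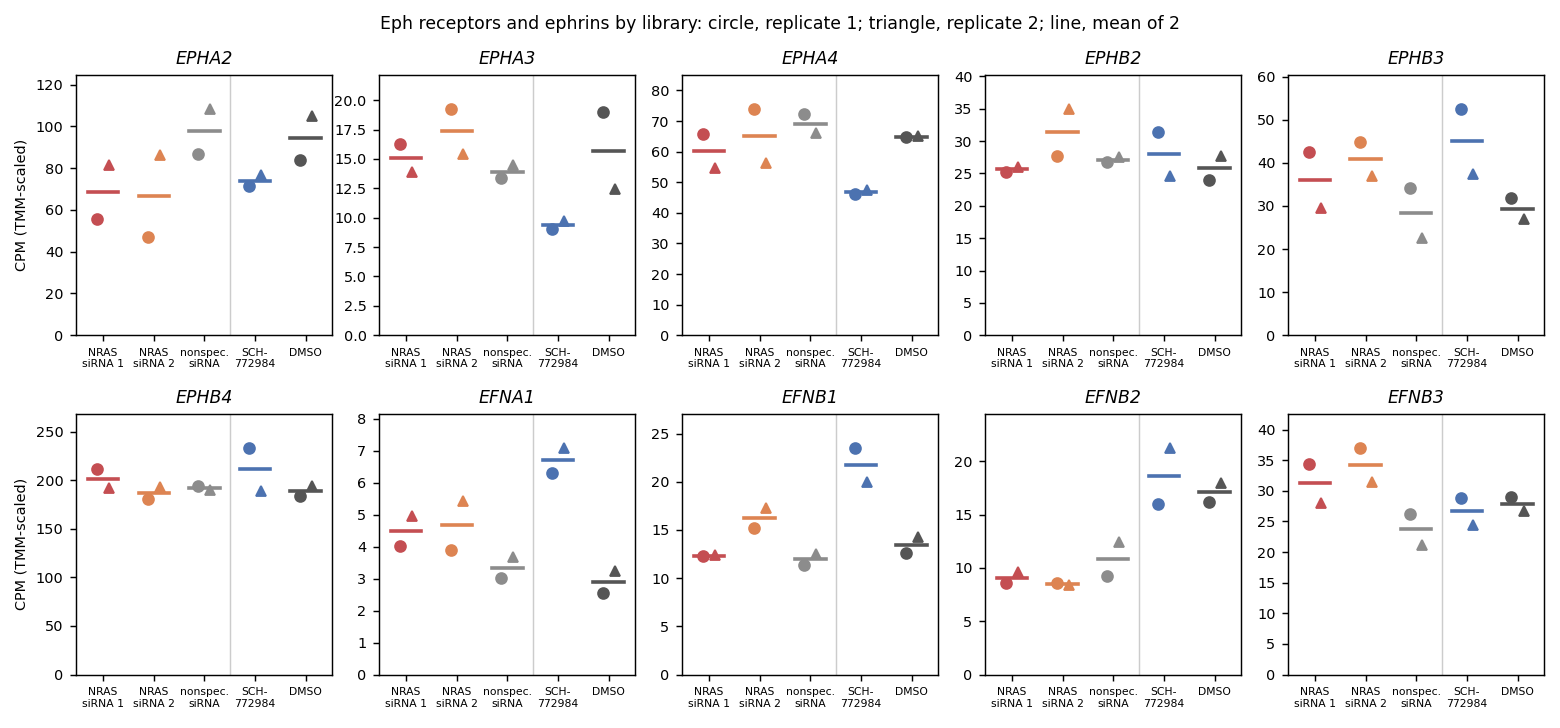
TMM-scaled CPM of each of the 10 genes in every library, with circles for replicate 1, triangles for replicate 2 and a line for the mean of 2, and each axis starting at 0. EFNA1 and EFNB1 are highest in the SCH772984 libraries, EPHA3 and EPHA4 are lowest there, and EFNB2 separates the siRNA groups from the drug and DMSO groups.

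By edgeR's main test none of the 10 genes passed the threshold with NRAS knockdown. With both siRNAs averaged against the nonspecific siRNA, 0 of 10 passed edgeR's test, against 7.95% of all genes, while 3 had an unadjusted p under 0.05 (EPHA2, EFNA1 and EFNB3) and DESeq2 called 1, EFNB3. With siRNA 1 alone 0 of 10 passed against 2.07% of all genes, 1 had an unadjusted p under 0.05 and DESeq2 called 0. With siRNA 2 alone 0 of 10 passed against 6.43%, 2 had an unadjusted p under 0.05 and DESeq2 called 1, again EFNB3. Over all 14761 genes, 3916 had an unadjusted p under 0.05 with both siRNAs, 2590 with siRNA 1 and 3947 with siRNA 2. DESeq2 called 1691, 763 and 1651 genes in the same order. With the replicate number as a block, 4 of 10 passed with both siRNAs (EPHA2, EPHB3, EFNA1 and EFNB3), beside 2846 of 14761 genes. Nothing in the labels pairs replicates across groups. Both siRNAs were set against the same 2 control libraries, so their differences are not independent.

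EPHA2 had 55.84 and 81.57 CPM with siRNA 1 and 46.98 and 86.42 CPM with siRNA 2, against 86.99 and 108.57 CPM with the nonspecific siRNA. All 4 knockdown libraries were below both controls, the nearest by under 1 CPM. The log2 difference was -0.53 (SE 0.224, 95% interval -1.03 to -0.03, adjusted p = 0.165 by edgeR). Replicate 1 was the lower library in each of the 5 groups, with a gap of up to 0.88 on the log2 scale. Without NRAS siRNA 2 replicate 2 the log2 difference was -0.78 and passed at an adjusted p of 0.0253, and without NRAS siRNA 2 replicate 1 it was -0.34 with an adjusted p of 0.333. EPHA2 made up 15.1 to 22.9% of the summed receptor level per kb with siRNA 1 and 13.4 to 22.9% with siRNA 2, against 22.8 to 27.9% with the nonspecific siRNA.

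EFNB3 had 34.45 and 27.97 CPM with siRNA 1 and 37.02 and 31.46 CPM with siRNA 2, against 26.24 and 21.17 CPM with the nonspecific siRNA. Every knockdown library was above both controls. The log2 difference was 0.46 (SE 0.138, 95% interval 0.16 to 0.77, adjusted p = 0.0659 by edgeR), and DESeq2 gave 0.48 with an adjusted p of 0.0212. With SCH772984 the interval for EFNB3, given above, spanned 0.

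EFNA1 had 4.01 and 4.97 CPM with siRNA 1 and 3.90 and 5.45 CPM with siRNA 2, against 3.02 and 3.68 CPM with the nonspecific siRNA. The knockdown libraries again lay above both controls, and the log2 difference was 0.45 (SE 0.201, adjusted p = 0.187 by edgeR). EPHB3 had a log2 difference of 0.44 (SE 0.212), EFNB1 of 0.24 (SE 0.124) and EFNB2 of -0.30 (SE 0.161), at adjusted p-values of 0.221, 0.243 and 0.258 by edgeR. In these 3 genes knockdown and control libraries overlapped. EPHB4, the most abundant receptor per length, had a log2 difference of 0.01 with a 95% interval of -0.19 to 0.22, and EPHA3, EPHA4 and EPHB2 had intervals that spanned 0. Of the 10 genes, 3 had every knockdown library on 1 side of both controls, as did 35.4% of all genes tested.

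Neuronal markers in the knockdown libraries summed to 651 to 919 (siRNA 1) and 768 to 1030 (siRNA 2), against 742 to 1174 CPM with the nonspecific siRNA. Epithelial markers summed to 117 to 193 (siRNA 1) and 138 to 212 (siRNA 2), against 191 to 215 CPM with the nonspecific siRNA. Blood markers summed to 3.17 to 4.79 (siRNA 1) and 3.08 to 4.13 (siRNA 2), against 5.09 to 5.46 CPM with the nonspecific siRNA. Neither siRNA overlapped the controls for this list, as 47.5% (siRNA 1) and 55.5% (siRNA 2) of all tested genes did not. Nearly all of that sum was CD68, the only blood marker tested. Muscle lineage markers summed to 39.1 to 41.2 (siRNA 1) and 42.0 to 44.3 (siRNA 2), against 35.8 to 43.6 CPM. Endothelial markers summed to 141 to 162 and 140 to 165, against 124 to 156 CPM. Of 26 markers on the 5 lists, 14 were tested, and 0 passed edgeR's test with both siRNAs, with 6 at an unadjusted p under 0.05 and 0 called by DESeq2. With siRNA 1 alone edgeR and DESeq2 called 0 of them, with 3 at an unadjusted p under 0.05. With siRNA 2 alone DESeq2 called 1 of them, STMN2, and edgeR 0, with 2 at an unadjusted p under 0.05. Their part in the Eph and ephrin values was not tested.

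Between the siRNAs no gene of the 10 passed. In siRNA 1 against siRNA 2, 0 of 10 passed edgeR's test, against 0.427% of all genes, 1 had an unadjusted p under 0.05 and DESeq2 called 0. That 1 was EFNB1, with 12.31 and 12.36 CPM with siRNA 1, against 15.16 and 17.26 CPM with siRNA 2. The siRNA 1 libraries were the lower ones, by a log2 difference of -0.39 (SE 0.140, adjusted p = 0.684 by edgeR). Among all 14761 genes, 881 had an unadjusted p under 0.05 and DESeq2 called 144.

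The nonspecific siRNA and DMSO groups differ in transfection and in collection time at once, so these cannot be told apart. Here 0 of 10 genes passed edgeR's test, against 0.379% of all genes, 1 had an unadjusted p under 0.05 and DESeq2 called 1. In both cases that gene was EFNB2, with 9.27 and 12.44 CPM with the nonspecific siRNA, against 16.15 and 17.99 CPM with DMSO. The log2 difference was -0.65 (SE 0.184, adjusted p = 0.175 by edgeR), and 0.0445 was the adjusted p with DESeq2. Of all 14761 genes, 1713 had an unadjusted p under 0.05 and DESeq2 called 370. EFNB2 had 8.44 to 9.62 CPM in the knockdown libraries and 15.94 and 21.25 CPM with SCH772984, so its levels went with the arm of the experiment in all 10 libraries.

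The siRNA response minus the SCH772984 response was also tested. The responses differ in transfection, collection time (48 h against 24 h) and control group as well as in target, and these cannot be told apart. None of the 10 genes passed edgeR's test of that difference (0 of 10, against 7.30% of all genes), 4 had an unadjusted p under 0.05 and DESeq2 called 1, EPHA3. Over all 14761 genes, 3545 had an unadjusted p under 0.05 and DESeq2 called 1533. The EPHA3 response was 0.22 on the log2 scale with the siRNAs and -0.74 with SCH772984, a difference of 0.96 (SE 0.270, adjusted p = 0.0602 by edgeR and 0.0123 by DESeq2). The EFNA1 response was 0.45 with the siRNAs and 1.21 with SCH772984, and the difference was -0.76 (SE 0.302, adjusted p = 0.160 by edgeR). For EFNB3 the difference was 0.53 (SE 0.208, adjusted p = 0.155 by edgeR) and for EFNB1 it was -0.45 (SE 0.185, adjusted p = 0.175 by edgeR). Without DMSO replicate 2, the EPHA3 difference was 1.24 at an adjusted p of 0.0305, and without DMSO replicate 1 it was 0.62 at 0.166.

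**Figure D3:**
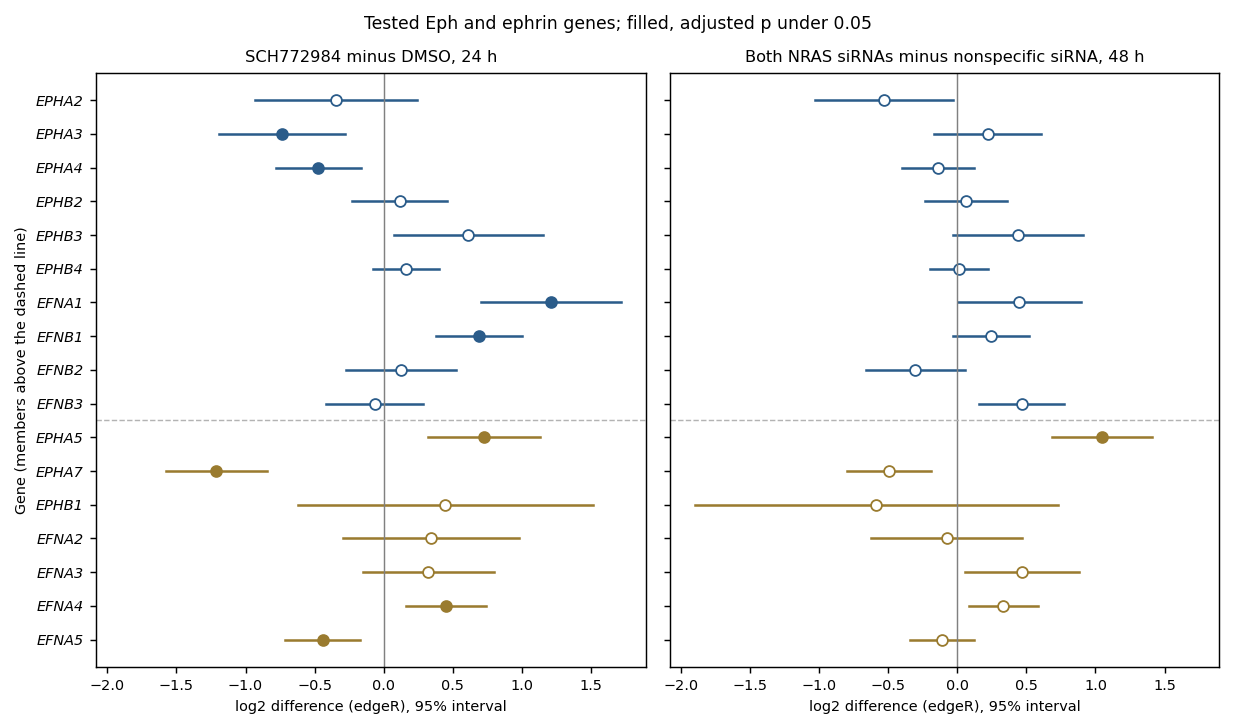
Log2 difference with its 95% interval for the 17 tested Eph and ephrin genes, SCH772984 minus DMSO at 24 h (left) and both NRAS siRNAs minus nonspecific siRNA at 48 h (right), with filled points for an adjusted p under 0.05. With the drug 8 of the 17 are filled, 4 on each side of 0, and with the siRNAs 1 is filled, EPHA5.

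The lists used hold 22 genes of the family, 14 receptors and 8 ephrins, of which 17 were tested. EPHA1, EPHA6, EPHA8, EPHA10 and EPHB6 were not, with at most 7 counts in a library. With SCH772984, 4 of the 17 rose and 4 fell, where 13.2% of all genes rose and 14.8% fell. Of 9 tested receptors 1 rose and 3 fell, and of 8 ephrins 3 rose and 1 fell, a split that was not tested. The summed ephrin level was 42.8 to 46.6 CPM per kb with SCH772984 and 35.7 to 36.6 CPM per kb with DMSO. It was 38.5 to 41.6 with siRNA 1 and 40.8 to 43.2 with siRNA 2, against 33.0 to 35.2 CPM per kb with the nonspecific siRNA. The largest parts were EFNA4, averaging 13.6 CPM per kb with either siRNA against 10.8, and EFNB3, averaging 9.69 and 10.6 against 7.36. Neither gene passed edgeR's main test there, and 6 of 8 ephrins had a positive log2 difference with each siRNA. For the receptors the siRNA libraries summed to 89.7 to 93.0 (siRNA 1) and 88.5 to 95.4 (siRNA 2), against 96.3 to 98.2 CPM per kb with the nonspecific siRNA. EPHA2, which did not pass edgeR's main test, averaged 17.3 and 16.8 CPM per kb against 24.7. With each siRNA, 4 of 9 tested receptors had a positive log2 difference. The summed receptor level overlapped for the drug, at 88.1 to 99.8 CPM per kb with SCH772984 and 95.4 to 98.9 CPM per kb with DMSO.

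Outside the 10, 4 relatives passed with SCH772984 and are named after their values were seen. EPHA7, a receptor of developing brain, had 22.3 and 24.6 CPM with SCH772984, against 62.9 and 45.6 CPM with DMSO. It fell by 1.21 on the log2 scale (SE 0.163, adjusted p = 0.000633 by edgeR), and passed in all 10 settings at log2 differences of -1.43 to -0.96. EPHA5, another mainly neural receptor, had 15.8 and 22.0 CPM with SCH772984, against 12.5 and 10.4 CPM with DMSO. Its rise of 0.72 (SE 0.183, adjusted p = 0.0157 by edgeR) was lost without SCH772984 replicate 2 or DMSO replicate 2, at adjusted p-values up to 0.121. EFNA4 rose by 0.45 (SE 0.129) and EFNA5 fell by 0.44 (SE 0.122), and these calls were lost in 4 of 10 settings each. EFNA4 overlaps read-through genes in the annotation, whose reads cannot be told apart from its own.

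By edgeR's main test, 1 of the 17 tested family genes, EPHA5, passed with both siRNAs (7.95% of all genes did), while DESeq2 also called EPHA7 and EFNB3. EPHA5 had 24.6 and 21.1 CPM with siRNA 1 and 28.9 and 25.8 CPM with siRNA 2, against 11.2 and 13.1 CPM with the nonspecific siRNA. All 4 knockdown libraries were above both controls. The log2 difference was 1.04 (SE 0.163, adjusted p = 0.00787 by edgeR), and it missed without nonspecific siRNA replicate 1, at an adjusted p of 0.0690. Each siRNA alone also passed, by 0.91 with siRNA 1 and 1.18 with siRNA 2. EPHA7, which fell with the drug, had 23.8 and 25.6 CPM with siRNA 1 and 37.7 and 30.7 CPM with siRNA 2, against 38.7 and 43.2 CPM with the nonspecific siRNA. Its log2 difference over both siRNAs was -0.50 (SE 0.138), with an adjusted p of 0.0536 by edgeR and 0.0156 by DESeq2.

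Of 43 signalling partners on the list used, 41 were tested, and 5 rose and 10 fell with SCH772984, where 13.2% of all genes rose and 14.8% fell. GRIP1, a scaffold that holds B-type ephrins by their tails, fell by 1.95 on the log2 scale (SE 0.283, adjusted p = 0.000955 by edgeR). PTPRO, a phosphatase that acts on Eph receptors in the chick retina, fell by 1.83 (SE 0.215) and CHN2, a RAC GTPase-activating protein of the chimaerin family, fell by 1.35 (SE 0.213). SH2D3C, an adaptor that binds Eph receptors, rose by 1.08 (SE 0.174). These 4, the greatest differences on the list, passed in all 10 settings, with adjusted p-values of at most 0.0198 by edgeR or DESeq2.

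With both siRNAs 2 partners rose and 4 fell, 6 of 41 where 7.95% of all genes passed. GRIP1 fell by 0.97 (SE 0.215, adjusted p = 0.0273 by edgeR) and ARHGEF16, a RHOG exchange factor that binds EPHA2, fell by 0.76 (SE 0.146, adjusted p = 0.0164 by edgeR). PTPN13, a phosphatase that binds B-type ephrins, rose by 0.74 (SE 0.132) and ITSN1, a CDC42 exchange factor downstream of EPHB2, rose by 0.47 (SE 0.0772). By edgeR, ITSN1 passed with each siRNA alone, ARHGEF16 and PTPN13 only with siRNA 2, and GRIP1 with neither (adjusted p 0.0517 and 0.0876). The falls of GRIP1 and ARHGEF16 were each lost in 4 of 12 settings, at adjusted p-values up to 0.131 and 0.0887. The rises of PTPN13 and ITSN1 were lost only without nonspecific siRNA replicate 1, at adjusted p-values of 0.0887 and 0.0652 by edgeR.

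**Figure D4:**
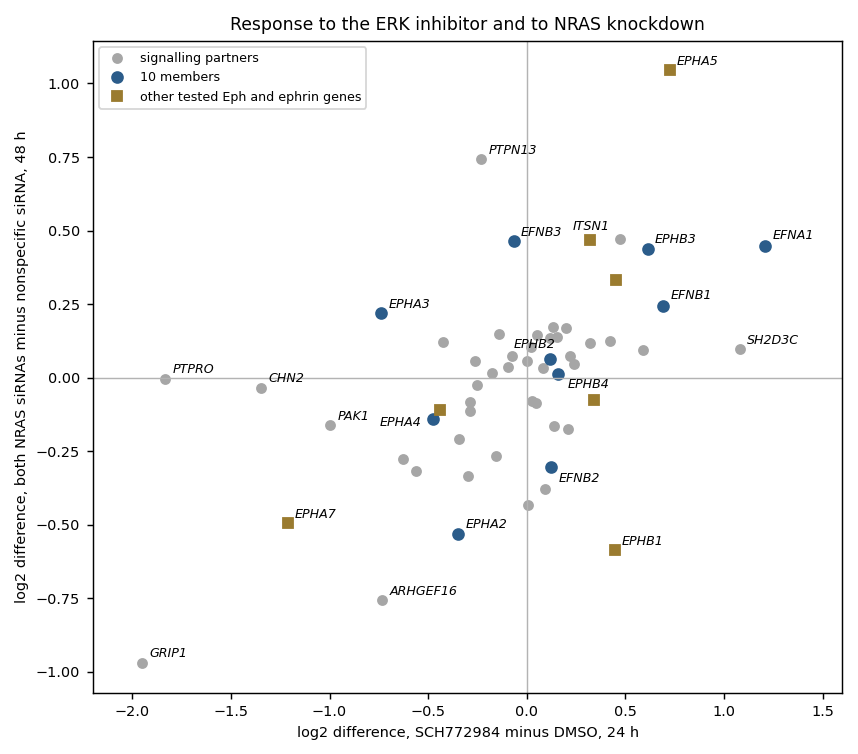
Log2 difference with SCH772984 (horizontal axis) against that with both NRAS siRNAs (vertical axis) for the 10 genes, 7 other tested family genes and 41 tested signalling partners. EFNA1 lies at 1.21 and 0.45, EPHA3 at -0.74 and 0.22, and GRIP1 at -1.95 and -0.97.

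The genes most like EPHA3 in pattern over the 10 libraries, by Pearson's r of log2 CPM among 11233 genes with a mean of at least 5 CPM, were BHLHB9 (r = 0.962), EXTL2 (r = 0.957) and KIAA1919 (r = 0.954). Those most like EFNA1, among 11234 genes, were TSPAN12 (r = 0.963), GCLC (r = 0.957) and GOLGA3 (r = 0.948). These are descriptions over libraries that share groups and replicate numbers. Within groups, 4 of the 10 genes kept the same order of replicates 1 and 2 in all 5 groups, as did 23.3% of all genes tested. EPHA2 and EFNA1 were lower in replicate 1 each time, and EPHB3 and EFNB3 were higher.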

How the data were processed

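The authors deposited whole-number counts of reads per gene for 10 libraries, not normalised, and 10 single-library files equal to the columns of 1 series table. Per the labels' protocols, libraries were stranded mRNA preparations. HTSeq, TopHat2, SAMtools and bcl2fastq are listed in the submitters' processing notes, as are the builds hg19 and GRCh37. For their versions, the annotation and the strand setting, nothing is given in the sources used here. Reads on 5 category lines that name no gene, 38.3 to 39.4% of a library, were left out.

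Groups and replicate numbers came from the labels. Tests across genes used edgeR 4.0.16 under R 4.3.3 (glmQLFit, glmQLFTest, TMM, filterByExpr at a minimum count of 10), with all 10 libraries in 1 fit with 5 residual degrees of freedom and Benjamini-Hochberg adjustment over 14761 genes. The step was also run on simulated counts for SCH772984 against DMSO, drawn with a common spread and no shared replicate effect. Such a run does not show how the calls hold in these libraries. TMM factors were 0.968 to 1.03, and 3 counts correspond to 0.0952 to 0.132 CPM. Alternatives were 2 other scalings, no filter, a fit of only the groups compared, the replicate number as a block, DESeq2 1.42.0 and each library left out, in which case a lone library is assumed to vary like the other groups. For genes outside the 10, these alternatives were added after seeing the data.

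The 10 genes and the lists were chosen with earlier results of these data known. The rule for named genes took these 10, NRAS, DUSP6, up to 4 partners past the threshold per comparison by size of difference, and the 3 genes most like the receptor and the ephrin that differed most with SCH772984. Exon lengths come from GENCODE on GRCh38, another build, so gene positions of the files' build are not given, and promoter positions are those of GRCh38.p14.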

Additional observations from a re-analysis of the deposited data

How the results depend on the processing

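No value of the 10 genes reversed a call under any alternative, and signs changed only where a value was not called. Calls among the 10 with SCH772984, 4 in the main test, were 3 with upper-quartile scaling, 5 with no filter, 5 in the fit of only these groups, 5 with DESeq2, and 1 to 3 when a library was left out. For both siRNAs, 0 calls became 2 with no filter, 1 with DESeq2 and 0 to 1 without a library. For siRNA 2 they became 1, 1 and 0 to 1. For siRNA 1 and for siRNA 1 against siRNA 2 they were 0 throughout, the block apart, and 0 with each library left out. The nonspecific siRNA against DMSO gave 1 with DESeq2 and 0 without any library, and the difference of responses gave 1 with no filter, 1 with DESeq2 and 0 to 1 without a library.

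Over all genes, siRNA 1 gave 305 calls, and 785 with no filter, 45 in the fit of only these groups, 763 with DESeq2 and 29 to 159 without a library. For siRNA 2, 949 became 1690, 225, 1651 and 52 to 1142. For both siRNAs, 1174 became 1765 with no filter, 425 in the fit of only these groups and 131 to 1493 without a library. SCH772984 gave 4128 calls, and 1865 to 3332 without a library. The siRNAs against each other gave 63, and 28 in the fit of only these groups, 144 with DESeq2 and 6 to 17 without a library. For the nonspecific siRNA against DMSO, 56 became 283 with no filter, 12, 370 and 6 to 12. The difference of responses gave 1078, and 349 to 918 without a library. Fewer libraries leave fewer residual degrees of freedom; otherwise the cause was not tested.

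Replicates share a number across groups and nothing in the labels pairs them. The deviations of replicate 1 from replicate 2 correlated across groups at r = 0.0737 to 0.448. They were positive in every pair of groups, and over 0.1 in all but nonspecific siRNA with DMSO. With the replicate number as a block, calls among the 10 were 1 for siRNA 1, 4 for siRNA 2, 4 for both siRNAs (EPHA2, EPHB3, EFNA1 and EFNB3), 5 for SCH772984, 0 between siRNAs, 1 for the nonspecific siRNA against DMSO and 3 for the difference of responses. Over all genes the block gave 1280 for siRNA 1, 2815 for siRNA 2, 2846 for both siRNAs and 5648 for SCH772984. It gave 120 between siRNAs, 446 for the controls and 2379 for the difference of responses.

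Among the 10 genes depth limits EFNA1 most, with 58 to 208 counts per library. Each group held 2 libraries, so 1 library decides several calls.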
